A study of Sus scrofa with 6 samples.

Results

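KLB and LGALS12 were the subjects of this comparison, with 6 of their relatives beside them, which makes 8 of the 31908 Ensembl genes that the deposited table lists. KLB encodes beta-klotho, the co-receptor of fibroblast growth factor (FGF) 21, and LGALS12 encodes galectin-12. Both were picked because their levels were much larger in pigs with high intramuscular fat (IMF), so their difference between the groups is given as a description and was not tested. The relatives are the FGF receptor genes FGFR1, FGFR2, FGFR3 and FGFR4 and the galectin genes LGALS1 and LGALS3, which were taken as family members. The RNA was that of a back muscle, longissimus dorsi (LD), of 6 castrated male Laiwu pigs, a fat Chinese breed. The S-H group held the 3 pigs with high IMF content (LW63, LW70 and LW119) and the S-L group the 3 pigs with low IMF content (LW82, LW88 and LW90). No treatment was given, and the groups were picked from the extremes of a larger herd by their measured IMF. Each pig gave 1 library of total RNA without ribosomal RNA, and each pig counted as 1 replicate.

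FGF21 is a hormone, made mainly by the liver, that acts on fat cells. It binds beta-klotho, which holds it on an FGF receptor, chiefly the one encoded by FGFR1, and the receptor then signals through adaptor proteins such as FRS2 to the MAP kinase cascade. Cells without beta-klotho answer FGF21 weakly or not at all. Galectins are proteins that bind beta-galactoside sugars. Galectin-12 is made mostly in fat cells, where it sits on lipid droplets and restrains the breakdown of stored fat, while galectin-1 and galectin-3 are found in many cell types.

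Levels were given as FPKM, fragments per length of transcript and per size of the library, summed over the transcripts of a gene. Depth behind single values is unknown because FPKM gives no counts, and between 44552 and 48568 transcripts per pig were above 0. A fold change is the difference of the group means of log2(FPKM + 0.1), a scale that understates the change of weakly expressed genes. Across 12841 protein-coding genes with a mean of at least 0.1 FPKM, 175 (1.36%) passed in limma, meaning that p was under 0.01 before adjustment and the log2 fold change was 1 or more in size. Of these, 150 were higher and 25 (0.195%) lower in S-H. That number was 88 without LW90 and 263 without LW82. The split was 82 higher and 56 lower after median-ratio scaling of the libraries, and the middle log2 fold change over these genes was 0.21 without scaling between libraries and 0.01 with it. After Benjamini-Hochberg adjustment in limma no gene was below 0.05 (0%), whereas 1049 (8.17%) were below it unadjusted, and the other settings gave from 0 to 9 genes after adjustment. The log2 fold change was positive in 74.1% of the tested genes. Muscle genes were abundant in every library, with CKM, the creatine kinase of muscle, between 1985 and 3939 FPKM. Of the 10 muscle fibre markers searched, 5 were found in the table under their name. MYH1, MYH2, MYH4, TTN and MB were not found under theirs, which does not show that they were absent. The summed level of the 5 found overlapped between the groups (6062 to 8732 FPKM in S-H and 6619 to 9439 FPKM in S-L). Single markers went both ways, with a log2 fold change of -0.97 for ACTA1 and 0.51 for TNNT1. Only TNNT1 was free of overlap, with S-H on top, as were 13.1% of all tested genes (14.8% in either direction). None of the 5 passed, where 1.36% of all tested genes did.

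KLB (ENSSSCG00000026297) lies on chromosome 8, where its Ensembl transcript runs from 30653572 to 30691349 of the pig assembly Sscrofa11.1. Its level was 8.26 FPKM in LW63, 4.25 FPKM in LW70 and 6.40 FPKM in LW119, against 0.992 FPKM in LW82, 0.945 FPKM in LW88 and 0.349 FPKM in LW90. The lowest S-H pig stood far above the highest S-L pig. S-H averaged 6.30 ± 2.01 FPKM (SD, n = 3), and S-L 0.762 ± 0.359 FPKM (SD, n = 3), a ratio of 8.27. Its log2 fold change of 2.95 was the 7th largest of the 12841 tested genes, of which 1.17% passed the thresholds as higher in S-H. Leaving out 1 pig at a time kept this value between 2.53, without LW90, and 3.20, without LW70. Bulk RNA of this kind cannot tell more KLB-expressing cells from more KLB RNA in each such cell.

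**Figure D1:**
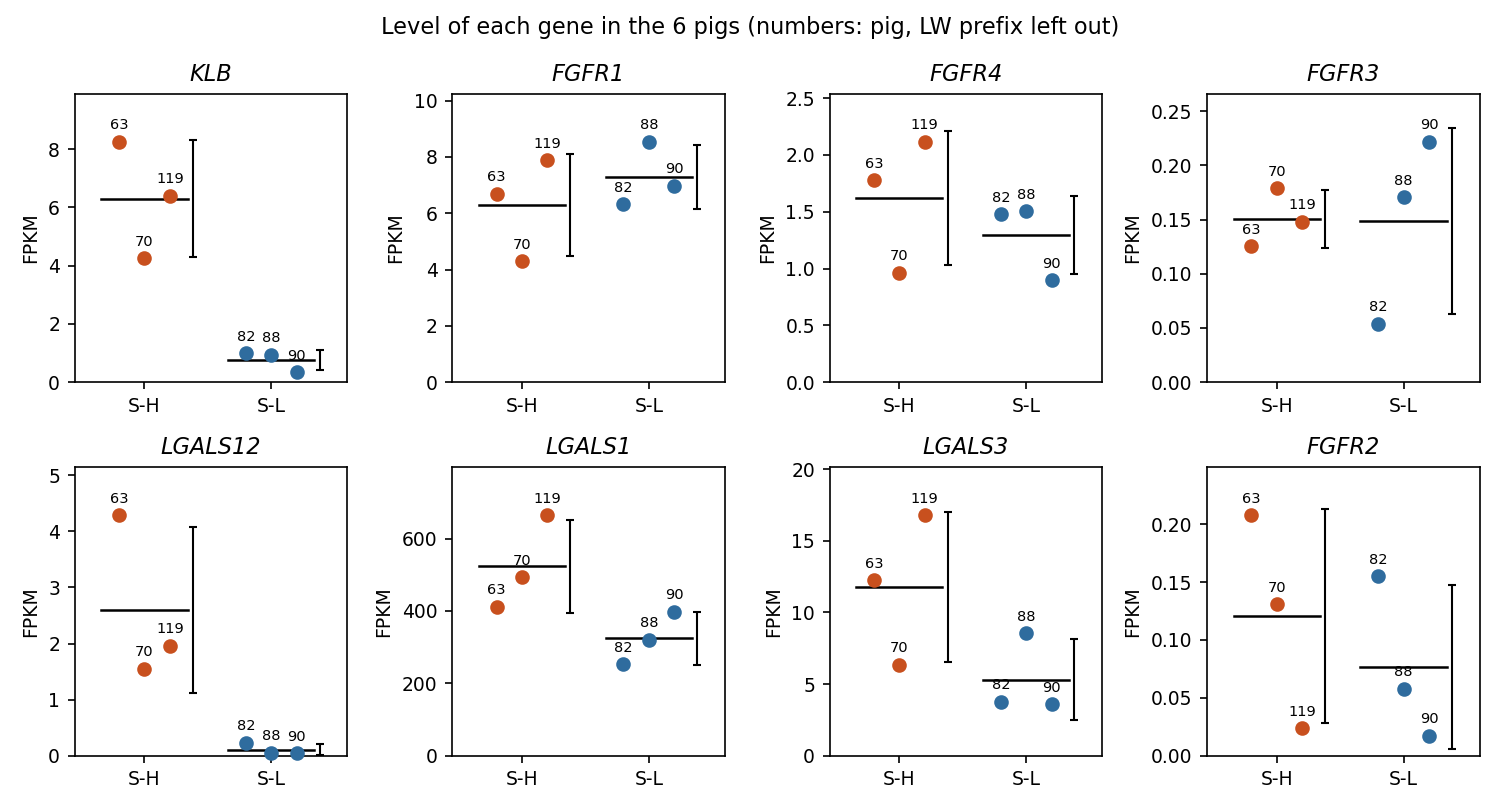
Level (FPKM, linear axes from 0) of the 8 genes in each of the 3 S-H pigs (orange) and the 3 S-L pigs (blue), with lines at the group means and bars of 1 SD. KLB and LGALS12 lay at 4.25 FPKM or more and at 1.55 FPKM or more in the S-H pigs and below 1 FPKM in the S-L pigs, while the 4 FGF receptors overlapped between the groups.

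LGALS12 (ENSSSCG00000013056) lies on chromosome 2, with its Ensembl transcripts between 8463402 and 8475225. Its level was 4.29 FPKM in LW63, 1.55 FPKM in LW70 and 1.96 FPKM in LW119, and 0.228 FPKM in LW82, 0.0491 FPKM in LW88 and 0.0461 FPKM in LW90. LW63 was the highest pig by a wide margin, and both LW88 and LW90 were close to 0. S-H averaged 2.60 ± 1.48 FPKM (SD, n = 3), and S-L 0.108 ± 0.104 FPKM (SD, n = 3), a ratio of 24.2. The log2 fold change was 3.68, the 4th largest of all tested genes, and stayed between 3.26 and 4.06 when 1 pig was left out. Because the S-L levels were near the pseudocount of 0.1, this value moved with the pseudocount, to 1.63 with 1 and to 4.68 with 0.01.

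KLB and LGALS12 placed the 6 pigs in the same order, LW63, LW119, LW70, LW82, LW88 and LW90 from high to low. The place of the S-H pigs above the S-L pigs in this order follows from how both genes were chosen, and only the order inside each group does not. The order inside S-H was that of 20.1% of the 12841 tested genes, and the order inside S-L that of 27.8%. The full order was found in 111 of these genes (0.864%), a share from which nothing is read. None of the 11 adipocyte markers tested had the full order, and 9 of them had LW70 above LW119.

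Each of the 2 genes was listed with an assembled transcript next to those of Ensembl, and the sums above include it. KLB-201, the Ensembl transcript of KLB, had 4.86 FPKM in LW63, 2.31 FPKM in LW70 and 3.64 FPKM in LW119, and between 0.349 and 0.442 FPKM in the S-L pigs, so that its means differed 9.11-fold. The assembled KLB-OT1 reaches past KLB-201 at the lower coordinate, and its span shares 10961 bases with RFC1, a replication factor gene. It was between 1.94 and 3.40 FPKM in S-H, 0.551 FPKM in LW82 and 0.549 FPKM in LW88, and it was listed at 0 in LW90. KLB-201 made up between 54.3% and 58.9% of the KLB level in the S-H pigs, a narrow range, and 44.5%, 41.9% and 100% in LW82, LW88 and LW90. With Ensembl transcripts alone the log2 fold change of KLB was 2.84.

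The Ensembl transcripts LGALS12-201 and LGALS12-202 differ in span, and both were higher in each S-H pig than in each S-L pig. LGALS12-201 ranged from 0.672 to 1.48 FPKM in S-H and from 0 to 0.108 FPKM in S-L, and LGALS12-202 from 0.238 to 1.43 FPKM and from 0 to 0.119 FPKM. The assembled LGALS12-OT1 spans 57.3 kb, of which 34233 bases lie within PLAAT3, the neighboring gene for a phospholipase of fat cells. It had 1.39 FPKM in LW63, 0.645 FPKM in LW70 and 0.277 FPKM in LW119, whereas LW82 and LW88 were listed at 0. In LW90 it alone carried the 0.0461 FPKM given for LGALS12, and both Ensembl transcripts were listed at 0 there. With Ensembl transcripts alone the log2 fold change of LGALS12 was 3.37. PLAAT3 itself overlapped between the groups, at 20.5, 7.61 and 11.8 FPKM in LW63, LW70 and LW119 and at 11.0, 9.53 and 6.32 FPKM in LW82, LW88 and LW90.

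**Figure D2:**
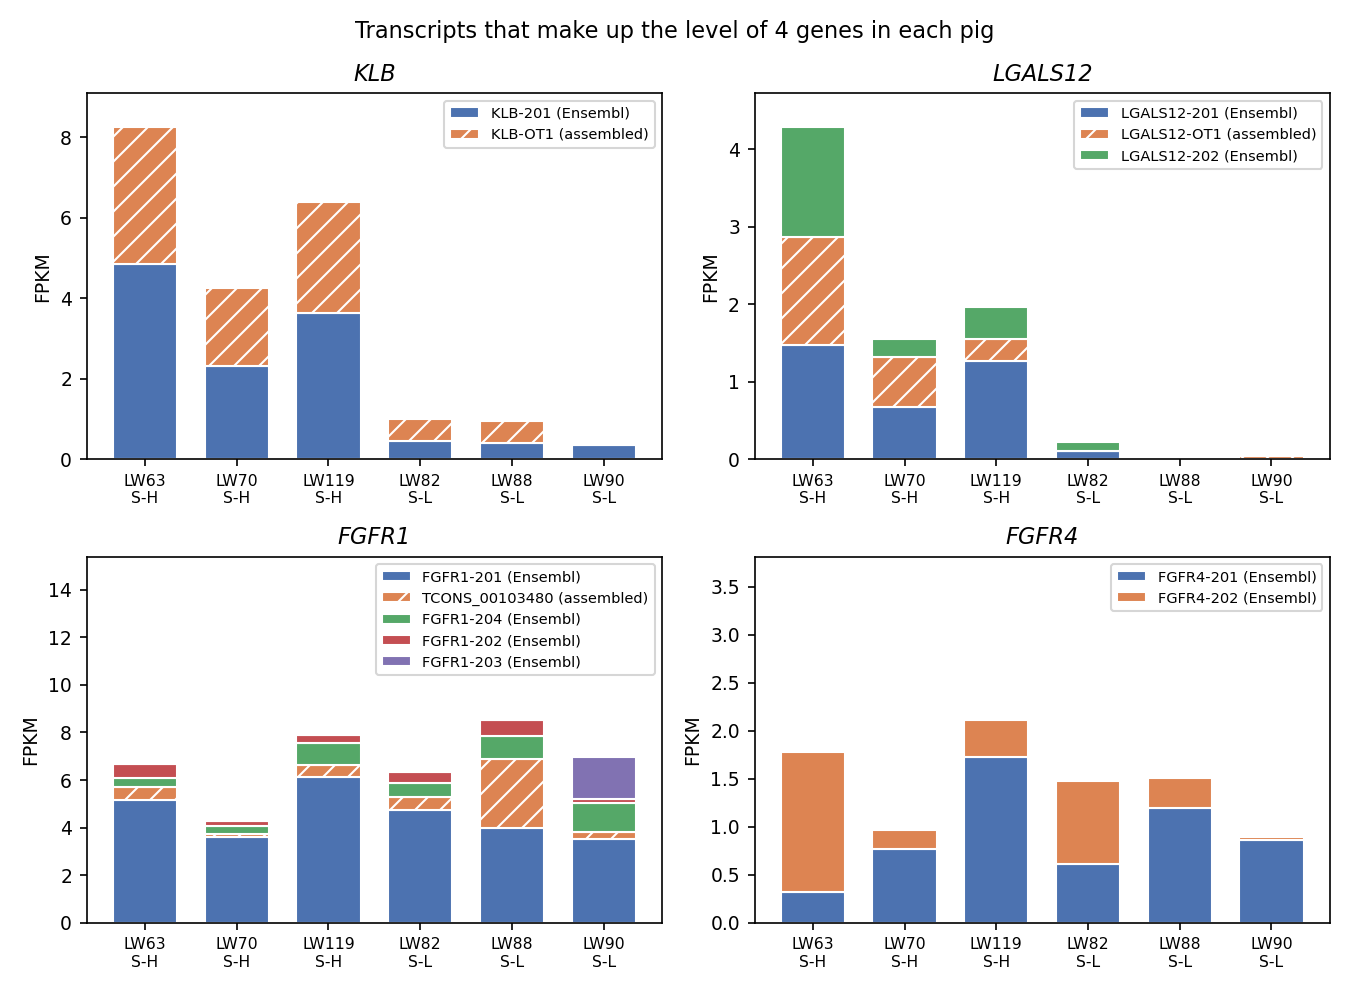
Stacked levels (FPKM) of the transcripts of KLB, LGALS12, FGFR1 and FGFR4 in each pig, with assembled transcripts hatched. KLB-201 and KLB-OT1 both stand high in the 3 S-H pigs, and FGFR1-201 makes up 77.0% to 84.4% of FGFR1 in S-H and 46.6% to 75.2% in S-L.

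The receptors that beta-klotho works with did not pass the test. FGFR1 (chromosome 15, 48053340 to 48106746), the main partner of beta-klotho in fat cells, had 6.69, 4.29 and 7.88 FPKM in LW63, LW70 and LW119 and 6.32, 8.54 and 6.98 FPKM in LW82, LW88 and LW90. The lowest level was in an S-H pig and the highest in an S-L pig, with the groups overlapping. Its log2 fold change was -0.24 (standard error 0.29, 95% interval from -0.88 to 0.40), and limma gave an adjusted p of 0.813. The value turned to 0.25 when only the transcript with the highest mean was counted and to 0.01 without LW70.

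FGFR4 (chromosome 2, 80841536 to 80853796), a receptor best known from the liver, had between 0.965 and 2.12 FPKM in S-H and between 0.896 and 1.51 FPKM in S-L. The log2 fold change of FGFR4 was 0.27 (standard error 0.36, 95% interval from -0.54 to 1.08, adjusted p of 0.840 from limma). It was 0.58 without LW70 and 0.05 without LW119 or without LW90. FGFR3 (chromosome 8, 879151 to 895912), a receptor of cartilage and epithelia, lay between 0.125 and 0.179 FPKM in S-H and between 0.0539 and 0.222 FPKM in S-L. Both genes overlapped between the groups. The log2 fold change of FGFR3 was 0.07 (standard error 0.43, 95% interval from -0.88 to 1.02, adjusted p of 0.967 from limma), and it was below 0 after median-ratio scaling (-0.07) and quantile normalization (-0.25) and without LW82 (-0.24). FGFR2 (chromosome 14, 131181710 to 131579703) had a mean of 0.0988 FPKM over the 6 pigs, just below the minimum for testing, with 0.0239 to 0.208 FPKM in S-H and 0.0173 to 0.155 FPKM in S-L. FGFRL1, a receptor-like gene without the kinase part, had 2.44, 2.22 and 1.52 FPKM in LW63, LW70 and LW119 and 1.39, 1.95 and 1.81 FPKM in LW82, LW88 and LW90 (log2 fold change 0.23, adjusted p of 0.830 from limma). None of the 4 receptor genes tested without KLB passed, where 1.36% of all tested genes did.

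Within the pigs FGFR1, FGFR4 and FGFR3 stood in a clear order. FGFR1 was above FGFR4 in 6 of 6 pigs, by 2.17 ± 0.39 on the log2 scale of FPKM + 0.1 (SD, n = 6; exact two-sided paired permutation test, adjusted p = 0.0417 over 4 pairs, with the unadjusted p at the smallest that 6 pigs allow). FGFR4 was above FGFR3 in 6 of 6 pigs, by 2.62 ± 0.70 (SD, n = 6; same exact test, adjusted p = 0.0417). FGFR3 and FGFR2 did not differ beyond their spread, at 0.39 ± 0.85 (SD, n = 6; same exact test, p = 0.3125). KLB moved through this order between the groups. It was at 123.46%, 99.0% and 81.2% of the FGFR1 level in LW63, LW70 and LW119, and at 15.7%, 11.07% and 4.995% of it in LW82, LW88 and LW90. In each S-H pig KLB thus stood above FGFR4, and in each S-L pig it stood below FGFR4.

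Transcripts of the receptors were shared out differently from pig to pig. FGFR1-201, the transcript of FGFR1 with the highest mean, held 79.7% ± 4.05 (SD, n = 3) of the FGFR1 level in S-H. Its share in S-L was 57.5% ± 15.5 (SD, n = 3), without overlap, and an exact permutation test (two-sided) gave p = 0.10, the smallest that 3 pigs against 3 allow (adjusted p = 0.60 over 6 genes). An assembled FGFR1 transcript stood at 2.89 FPKM in LW88, against 0.118 to 0.561 FPKM in the other pigs. FGFR1-203 had 1.79 FPKM in LW90 and 0 in each of the 5 remaining pigs. The remaining transcripts, FGFR1-204 at 0.345 to 1.24 FPKM and FGFR1-202 at 0.142 to 0.674 FPKM, were above 0 in all 6 pigs. FGFR4-201 held 18.0% of FGFR4 in LW63 and 41.5% in LW82, and between 79.5% and 95.9% in the other 4 pigs, so that the groups overlapped (exact two-sided permutation test, p = 0.70).

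Among the ligands, FGF21 was barely present in muscle. It lay between 0.0945 and 0.148 FPKM in S-H and between 0.0410 and 0.233 FPKM in S-L (log2 fold change 0.14, adjusted p of 0.940 from limma). FGF19, the gut hormone that also uses beta-klotho, and FGF23, a bone hormone that uses the related klotho, were listed at 0 in all 6 pigs, as were FGF3, FGF8 and FGF20. Of the 18 ligand genes searched, 17 were found in the table under their name and 9 reached the minimum for testing. None of the 9 passed, near the share of 1.36% among all tested genes. Their median log2 fold change was 0.19, close to the 0.21 of all tested genes. FGF2, a growth factor held in the matrix, was the highest ligand, with 8.35, 4.29 and 4.65 FPKM in LW63, LW70 and LW119 and 3.22, 5.37 and 4.97 FPKM in LW82, LW88 and LW90. FGF1, which PPAR gamma induces in fat tissue, lay between 1.04 and 3.52 FPKM in S-H and between 0.901 and 2.03 FPKM in S-L, and FGF9 between 1.05 and 2.65 FPKM and between 1.001 and 2.34 FPKM. FGF10, which fat precursor cells use in the growth of fat tissue, was the only tested ligand with no overlap, at 0.184 to 0.324 FPKM in S-H and 0.0226 to 0.130 FPKM in S-L. Such a separation with S-H on top was found in 13.1% of all tested genes (14.8% in either direction, 1.7% with S-L on top). FGF10 did not pass, at a log2 fold change of 1.03 with a standard error of 0.43 (limma, adjusted p of 0.604).

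All 11 adaptor and early signaling genes, which carry the FGF signal inside the cell, were tested and had a median log2 fold change of 0.23. None passed, which is near the share of 1.36% among all tested genes. CRK, an adaptor, was the highest of them, between 151.9 and 153.5 FPKM in S-H and between 126.4 and 166.0 FPKM in S-L. SOS1 and SOS2, which switch on RAS, lay between 14.5 and 19.3 FPKM in S-H and between 12.0 and 29.7 FPKM in S-L. FRS2, the docking protein of the FGF receptors, overlapped as well, at 4.90 to 8.25 FPKM in S-H and 5.38 to 12.0 FPKM in S-L.

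All 13 feedback genes, which rise with FGF signaling or dampen it, were tested. None passed, near the 1.36% of all tested genes, and none was free of overlap, against 14.8% of all tested genes. Their median log2 fold change was 0.07. SPRY1, which encodes an inhibitor of receptor signaling, lay between 15.9 and 19.3 FPKM in S-H and between 17.1 and 23.6 FPKM in S-L. DUSP6, the phosphatase that ERK induces against itself, lay between 7.71 and 15.1 FPKM in S-H and between 8.74 and 11.0 FPKM in S-L. DUSP4, a related phosphatase, had 4.44, 3.07 and 8.62 FPKM in LW63, LW70 and LW119 and 3.64, 10.5 and 4.32 FPKM in LW82, LW88 and LW90. The highest and the lowest levels of DUSP4 thus came from 1 pig of each group.

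**Figure D3:**
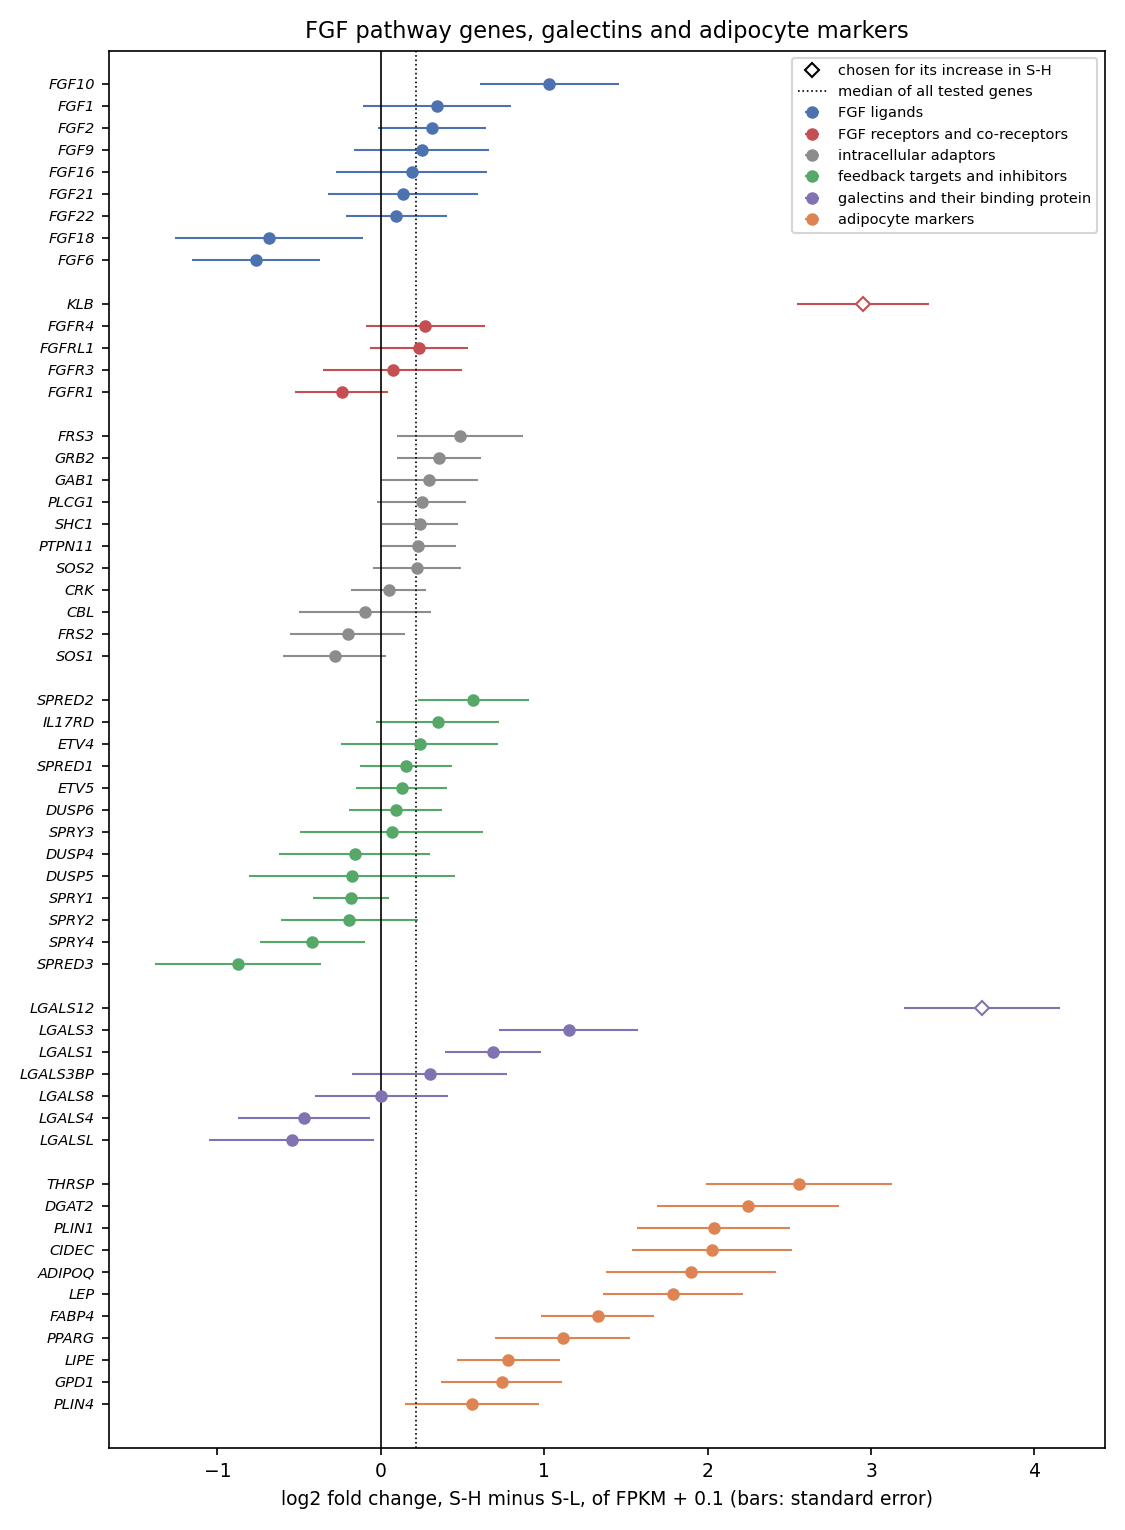
Log2 fold change (S-H minus S-L, FPKM + 0.1) with standard error of each tested gene of the FGF pathway lists, the galectins and the adipocyte markers. Open diamonds mark KLB at 2.95 and LGALS12 at 3.68, which were chosen for their increase, and the dotted line is the median of all tested genes, 0.21.

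LGALS1 (chromosome 5, 10149062 to 10156210), the most abundant of the 8 genes, had 412.1 FPKM in LW63, 492.8 FPKM in LW70 and 664.9 FPKM in LW119, against 252.6 FPKM in LW82, 321.1 FPKM in LW88 and 398.1 FPKM in LW90. The groups did not overlap, although LW63 and LW90 were close. Such a separation with S-H on top was found in 13.1% of all tested genes. The log2 fold change was 0.69 (standard error 0.29, 95% interval from 0.03 to 1.34). In limma p was 0.0416 before and 0.607 after adjustment, and LGALS1 did not pass. The log2 fold change was 0.47 after median-ratio scaling and 0.39 after quantile normalization, and between 0.50, without LW119, and 0.85, without LW90, when 1 pig was left out. LGALS1-202 made up between 95.4% and 96.1% of this level in every pig.

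LGALS3 (chromosome 1, Ensembl transcripts from 184478710 to 184497951), a galectin known from macrophages and other cells, had 12.2, 6.36 and 16.8 FPKM in LW63, LW70 and LW119 and 3.76, 8.55 and 3.59 FPKM in LW82, LW88 and LW90. LW88 lay above LW70, so the groups overlapped. The log2 fold change was 1.15 (standard error 0.42, 95% interval from 0.20 to 2.10). In limma p was 0.0222 before and 0.577 after adjustment, so it did not pass. It passed the thresholds without LW70 (1.54, unadjusted p of 0.00440 from limma) and without LW88 (1.55, unadjusted p of 0.00378 from limma). The 6 macrophage markers measured overlapped between the groups, with a summed level of 25.7 to 66.2 FPKM in S-H and 31.6 to 49.1 FPKM in S-L, and their part in the LGALS3 level was not tested. LGALS1 was above LGALS3 in 6 of 6 pigs, by 5.77 ± 0.68 on the log2 scale (SD, n = 6; exact two-sided paired permutation test, adjusted p = 0.0417).

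Of the 10 galectin genes searched, 9 were found in the table under their name. None of the 6 that were tested beside LGALS12 passed, where 1.36% of all tested genes did. LGALSL, a galectin-like gene, was at 15.4, 3.25 and 12.1 FPKM in LW63, LW70 and LW119 and at 16.0, 9.81 and 12.3 FPKM in LW82, LW88 and LW90, where LW70 stood apart at the low end. LGALS8, a galectin that marks damaged vesicles, lay between 1.99 and 4.34 FPKM in S-H and between 1.79 and 4.31 FPKM in S-L (log2 fold change 0.00, adjusted p of 0.998 from limma). LGALS2 was above 0 only in LW82, at 0.0596 FPKM, and LGALS13 was listed at 0 in all 6 pigs. Without LGALS12 the median log2 fold change of the 6 tested genes of this list was 0.15.

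Genes that mark fat cells were higher in S-H along with KLB and LGALS12. Of the 12 adipocyte markers searched, 11 were tested and 7 passed as higher in S-H, where 1.17% of all tested genes did (ADIPOQ, PLIN1, FABP4, CIDEC, LEP, DGAT2 and THRSP), none passed as lower, and 9 of the 11 did not overlap between the groups, against 13.1% of all tested genes with S-H on top. Their median log2 fold change was 1.79, and their summed level was 561.3 to 1512 FPKM in S-H and 372.8 to 459.6 FPKM in S-L, with no marker at 0 in all pigs. PLIN1, the coat protein of large lipid droplets, had 56.8, 23.3 and 21.2 FPKM in LW63, LW70 and LW119 and 12.4, 8.04 and 3.92 FPKM in LW82, LW88 and LW90. ADIPOQ, the hormone adiponectin, had 365.9, 117.4 and 96.3 FPKM in the S-H pigs and 67.2, 49.4 and 23.9 FPKM in the S-L pigs, in the same order of pigs. LW63 was the highest pig in both, as it was in KLB and LGALS12.

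KLB and LGALS12 were also set against the adipocyte markers within each pig, first against ADIPOQ and PLIN1. The KLB level was 2.26%, 3.62% and 6.65% of the ADIPOQ level in LW63, LW70 and LW119, and 1.48%, 1.91% and 1.46% of it in LW82, LW88 and LW90. Set against PLIN1, KLB was at 14.5% to 30.2% in S-H and 8.01% to 11.8% in S-L. The groups did not overlap in either ratio, and LW119, the S-H pig with the least ADIPOQ and PLIN1, had the largest. LGALS12 was at 1.17%, 1.32% and 2.04% of ADIPOQ in LW63, LW70 and LW119, and at 0.339%, 0.0993% and 0.192% in LW82, LW88 and LW90. Against PLIN1 it was at 6.68% to 9.27% in S-H and 0.610% to 1.84% in S-L. Over all 11 markers, the ratio of LGALS12 was free of overlap with S-H on top for 11 and that of KLB for 10. The exception was THRSP, where KLB stood at 91.1%, 174.7% and 143.7% of its level in LW63, LW70 and LW119 and at 101.5%, 76.4% and 135.1% in LW82, LW88 and LW90. Against HCAR1, the lactate receptor of fat cells, KLB overlapped too, at 208.8% to 325.7% in S-H and 178.3% to 246.5% in S-L, while LGALS12 did not, at 85.8% to 108.4% and 12.8% to 42.8%. LGALS12 was between 30.7% and 51.9% of the KLB level in S-H and between 5.19% and 22.9% in S-L. These ratios are descriptions, since KLB and LGALS12 were chosen for their increase. Ratios without overlap against markers that changed less follow largely from that choice. The same count over all tested genes was not made. The part of fat cell content in the increase of KLB and LGALS12 was not tested.

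**Figure D4:**
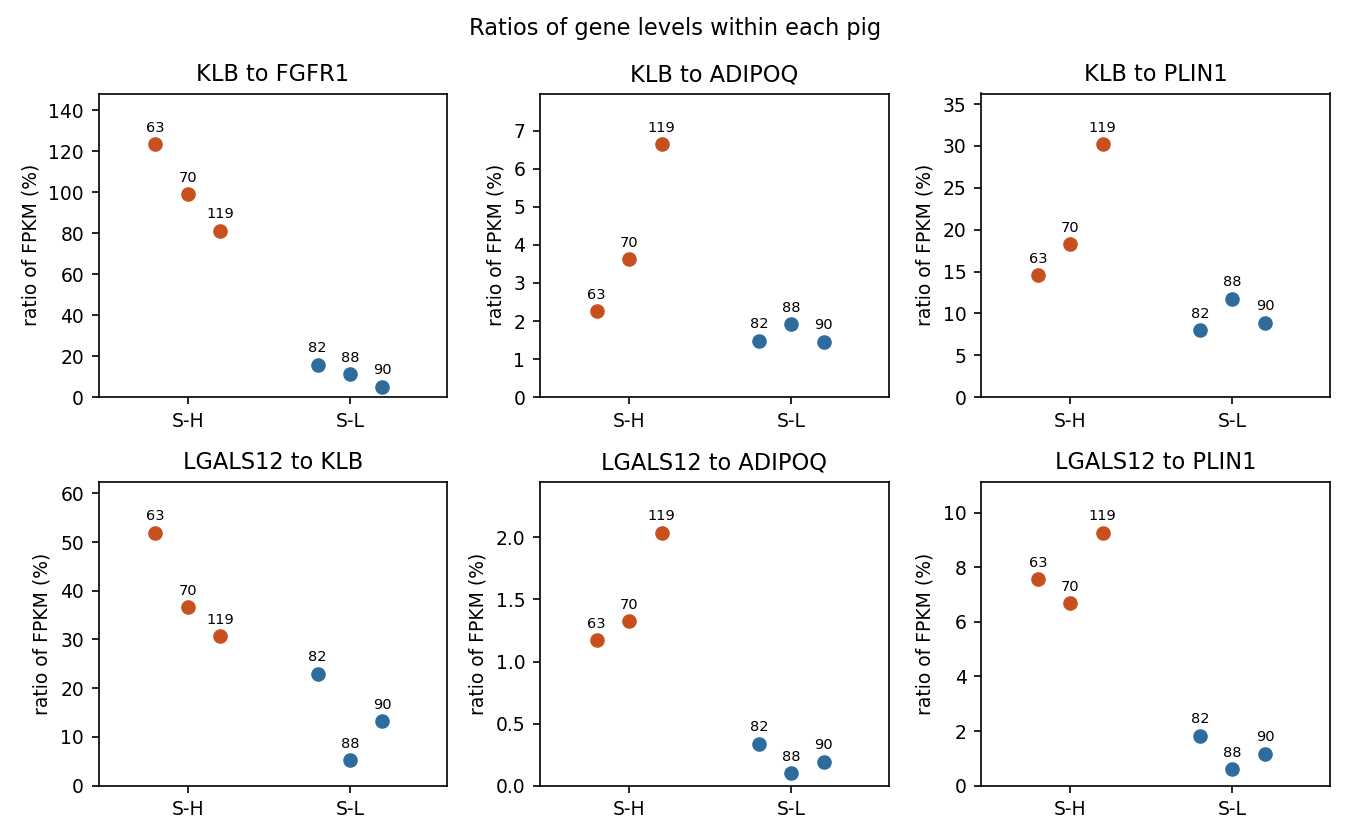
Ratio of the FPKM of 2 genes within each pig (percent, linear axes from 0) for the 3 S-H pigs (orange) and the 3 S-L pigs (blue). In all 6 panels the S-H pigs lie above the S-L pigs, with KLB at 81.2% to 123.46% of FGFR1 in S-H and at 4.995% to 15.7% in S-L.

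Of the other cell type lists, the 6 endothelial markers had a summed level of 120.0 to 135.6 FPKM in S-H and 73.0 to 110.1 FPKM in S-L, with no marker at 0. Only CLDN5, a tight junction gene of vessels, passed among them, where 1.36% of all tested genes did. CLDN5 had 29.7, 24.8 and 22.2 FPKM in LW63, LW70 and LW119 and 12.6, 6.75 and 3.77 FPKM in LW82, LW88 and LW90 (log2 fold change 1.87 with a standard error of 0.39, limma adjusted p of 0.423). The other 5 did not pass. Of these, PECAM1 was free of overlap with S-H on top, as were 13.1% of all tested genes. CDH5, VWF, KDR and TEK overlapped, and VWF had a log2 fold change of -0.26. The 3 B cell markers summed to 116.5 to 145.7 FPKM in S-H and 89.6 to 101.1 FPKM in S-L, nearly all from CD79A. The other B cell markers overlapped between the groups. CD79B averaged 0.642 FPKM in S-H and 0.644 FPKM in S-L. MS4A1, below the minimum for testing, averaged 0.0795 FPKM in S-H and 0.113 FPKM in S-L. The 7 fibroblast and fibro-adipogenic progenitor markers overlapped, at 321.8 to 659.6 FPKM in S-H and 345.0 to 532.4 FPKM in S-L. No gene of the smooth muscle, satellite cell, T cell, B cell, red blood cell, Schwann cell or liver lists passed, where 1.36% of all tested genes did. The part of any of these cells in the KLB and LGALS12 levels was not tested.

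The genes whose profile over the 6 pigs was most like that of KLB were sought by the mean absolute difference of log2(FPKM + 0.1), after each gene was centred on its own mean. HCAR1 came first at 0.25, where the median of all genes with a symbol was 1.37. Its level was 3.96, 1.81 and 1.96 FPKM in LW63, LW70 and LW119 and 0.532, 0.383 and 0.195 FPKM in LW82, LW88 and LW90. THRSP, a regulator of fatty acid synthesis, followed at 0.35, DGAT2, which makes triglyceride, at 0.37, LGALS12 at 0.39 and MAL2, a membrane traffic gene, at 0.42. THRSP and DGAT2 are among the adipocyte markers above. PLIN1 came 7th at 0.46 and ADIPOQ 21st at 0.60, while FABP4 came 101st at 0.81 and PPARG 228th at 0.92.

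For LGALS12 the nearest gene was KLB at 0.39, followed by HCAR1 at 0.59, MAL2 at 0.61, CD247 at 0.62 and THRSP at 0.63, against a median of 1.73. CD247, which encodes the zeta chain of the T cell receptor, had 4.85, 1.15 and 0.936 FPKM in LW63, LW70 and LW119 and 0.427, 0.139 and 0.215 FPKM in LW82, LW88 and LW90. The T cell markers CD3E, CD3D and CD2 overlapped between the groups, with a summed level of 1.01 to 1.83 FPKM in S-H and 0.891 to 1.64 FPKM in S-L. Likeness here includes the difference between the groups for which KLB and LGALS12 were chosen.

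None of the tested genes beside KLB and LGALS12 on their chromosomes passed, near the share of 1.36% among all tested genes. Of the 10 nearest genes of KLB, 8 were tested, with a median log2 fold change of 0.18, and LIAS, a lipoic acid synthase and the next gene after KLB, was the only one without overlap, at 4.27 to 7.56 FPKM in S-H and 3.17 to 4.06 FPKM in S-L (adjusted p of 0.604 from limma). That is 1 of 8, near the 13.1% of all tested genes with S-H on top. RFC1, whose span the assembled KLB transcript enters, lay between 3.56 and 4.99 FPKM in S-H and between 3.44 and 5.47 FPKM in S-L. SMIM14, UGDH and UBE2K, the most abundant genes beside KLB, overlapped as well. Of the 10 nearest genes of LGALS12, 4 were tested and none was free of overlap, PLAAT3 and ATL3 among them, while 5 were listed at 0 in all pigs.

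**Figure D5:**
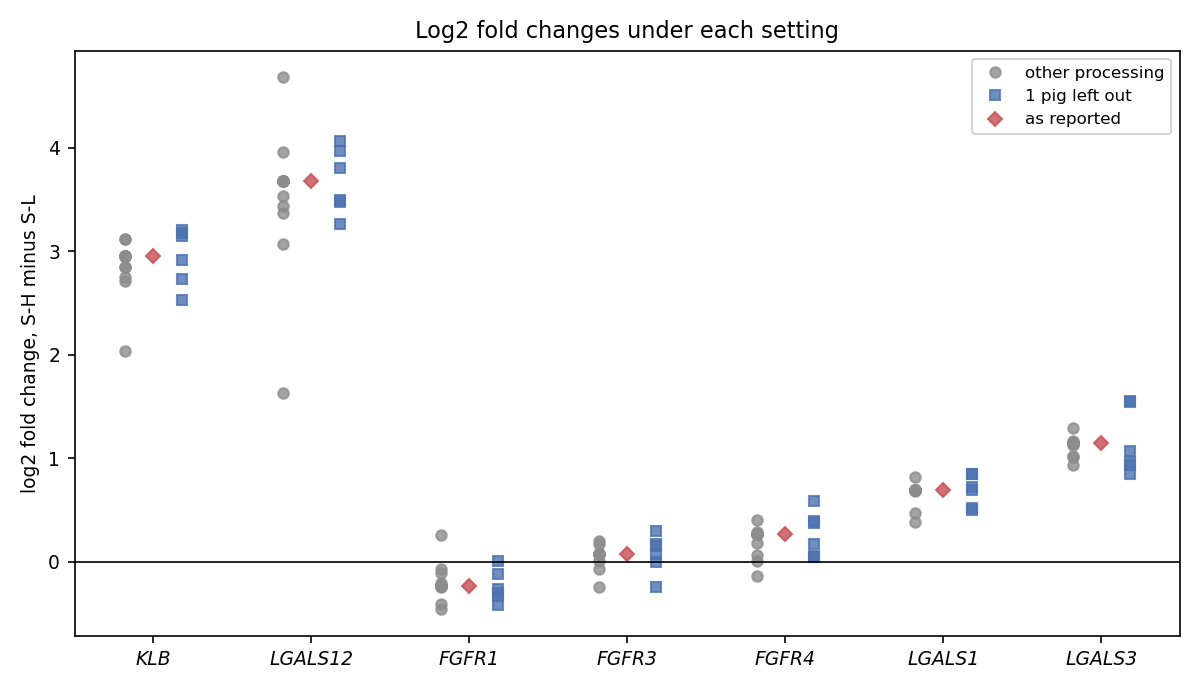
Log2 fold change (S-H minus S-L) of 7 genes as reported (red diamonds), under other processing (gray circles) and with 1 pig left out (blue squares). KLB stays between 2.04 and 3.20 and LGALS12 between 1.63 and 4.68, and FGFR1, FGFR3 and FGFR4 lie on both sides of 0.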

How the data were processed

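RNA of 6 pigs was sequenced, with 1 library per pig. Following the study's methods, the authors filtered the reads, aligned them with HISAT2 to the pig assembly Sscrofa11.1 and used StringTie to assemble transcripts and compute FPKM (versions not given in the sources used here). The values the authors deposited are FPKM per transcript, with no scaling between libraries stated. The 21104 Ensembl transcripts without a symbol were taken to be in TPM, a unit that was inferred. They were multiplied by 1 factor per pig (0.639 to 0.847) to FPKM, on the assumption that TPM sum to 1000000 per library. None belongs to the 8 genes described.

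Transcripts were summed per gene. Protein-coding genes were taken from the RefSeq table of the same assembly, by symbol (14547 genes) or by a reciprocal overlap of at least 50% (4148 genes). Those with a mean of at least 0.1 FPKM were compared with limma 3.58.1 in R 4.3.3 on log2(FPKM + 0.1), with a variance trend and no covariate, and p was adjusted by Benjamini-Hochberg over all tested genes. The fit was also run on simulated data with independent noise per gene, and no result here rests on that run. The test of the study needs counts and was not used here. The libraries were stranded, but whether strand was used in quantification is not stated, and assembled transcripts that overlap RFC1 and PLAAT3 are uncertain. Levels within a pig and transcript shares were compared by exact permutation tests in Python 3.11.15 with scipy 1.17.1. KLB and LGALS12 were not tested.

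The genes and lists were chosen with earlier results of these data known. Named were the 8 genes, list genes that passed, up to 3 genes of highest mean in each FGF, galectin and neighbor list, and the 5 genes most like KLB and LGALS12 each. FGF10, FGF19, FGF20, FGF21, FGF23, FGF3, FGF8, FGFRL1, FRS2, LGALS2, LGALS8, LGALS13, LIAS, PLIN1 and ADIPOQ as references, RFC1 and single cell type markers were named for their role or after their values were seen. Other settings were the pseudocount, the minimum, scaling, variance model, gene set, transcript choice, the values exactly as deposited and each pig left out. Ratios to adipocyte markers other than ADIPOQ and PLIN1, and to HCAR1, were added after the data were seen. Sequences were not used here.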

Additional observations from a re-analysis of the deposited data

How the results depend on the processing

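No paired analysis was possible because S-H and S-L hold different animals and the labels give no shared numbers. Precision rests on 3 pigs per group, depth behind single FPKM values is unknown, and a p that misses its threshold does not show equal levels. Counting Ensembl transcripts only was chosen after seeing the data. With a pseudocount of 1, 78 genes passed and the log2 fold change was 2.04 for KLB and 1.63 for LGALS12, and with 0.01 it was 4.68 for LGALS12. With TPM, 264 genes passed (249 higher, 15 lower; median log2 fold change of all genes 0.35), and after quantile normalization 133 (70 higher, 63 lower). With 1 pig left out, between 88 and 263 genes passed. The sign turned for FGFR1 with the highest transcript (0.25), for FGFR3 after median-ratio scaling (-0.0693) and quantile normalization (-0.25), and for FGFR4 with the highest transcript (-0.14). With 1 pig left out, log2 fold changes lay between -0.42 and 0.00791 for FGFR1, between -0.24 and 0.29 for FGFR3, between 0.05 and 0.58 for FGFR4, between 0.50 and 0.85 for LGALS1 and between 0.84 and 1.55 for LGALS3. The log2 ratios lay between 2.04 and 2.24 for FGFR1 to FGFR4, between 2.47 and 2.82 for FGFR4 to FGFR3 and between 5.57 and 5.91 for LGALS1 to LGALS3, where 5 pigs cannot reach an exact p below 0.0625. Among the FGF ligands, 1 gene passed with no minimum and 1 without LW82, and the cause was not tested. KLB and LGALS12 kept their sign in all 19 other settings, which is no support, since both were chosen for a large increase in S-H. LGALS1 and LGALS3 kept theirs in all 19 as well.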
